A study of Populus ussuriensis with 12 samples.

Results

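The 219 genes described here were lower under polyethylene glycol (PEG) in root tips of PuC3H35 overexpressors and changed little under PEG in wild-type root tips. They were picked from the 34699 genes of a poplar root tip RNA-seq table by their group means. The mean over the 12 libraries had to be at least 1 FPKM, that is, reads scaled to gene length and library depth. The difference in log2(mean FPKM + 1) between PEG and no PEG had to be -1 or lower in the overexpressor and under 0.4 in size in wild type. Both PEG effects, and the difference between them, therefore chose these genes and are given as descriptions without a test. The table pairs no identifier with a gene name, so no function is assigned to any of the 219, and no promoter or protein sequence is shown.

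Total RNA of 0.5 cm root tips of Populus ussuriensis, a poplar, was sequenced in 4 groups of 3 libraries. They were the overexpressor (OE) with and without 6% PEG6000, and the wild type (WT) with and without it. All plants were raised in vitro on half-strength Murashige and Skoog medium and were 1 week old when moved to the test medium for 7 days. The genotype labels of the 6 OE libraries differ in their number, which runs from PuC3H35 up to PuC3H40. The title of the series speaks of a single line, so the 6 were treated as 1 genotype. Taken at face value, PuC3H35, PuC3H36 and PuC3H37 are the libraries without PEG and PuC3H38, PuC3H39 and PuC3H40 those with it, so within OE the label number and PEG cannot be told apart. The sources used here do not give the promoter of the transgene or the number of independent lines. Whether replicates were separate plants or cultures is not labelled, so p-values reflect only the scatter among these libraries, which may be technical. Without gene names, neither the level of the transgene nor markers of root tissue could be looked up.

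PEG is an inert polymer that lowers the water potential of the medium and is used to impose a water deficit without entering cells readily. The root tip holds the meristem, where cells divide, and the zone where they elongate, and it is the part of the plant that meets a drying medium first. PuC3H35 belongs to the CCCH zinc finger proteins, a family of regulators of which many bind RNA and some bind DNA, and several plant members act in stress responses.

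Library totals recovered from the steps of the FPKM values were 27124956 to 37106341 reads. FPKM sums were 661656 to 665551 in OE with PEG, 612376 to 619319 in OE without PEG, 610202 to 611296 in WT with PEG and 616629 to 623973 in WT without PEG. Over the 22640 genes tested, the median PEG effect in log2(mean FPKM + 1) was -0.02 in OE and -0.04 in WT. The median coefficient of variation within a group was 4.92% to 5.86% for the 219 genes and 5.51% to 6.17% for all genes tested. In OE with PEG it was higher for the 219 genes (5.86%) than for all genes tested (5.51%), and in the other groups it was lower. Single genes of the 219 reached 124% in OE with PEG.

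The 219 genes made up 0.967% of the genes tested. In all, 534 genes tested had a PEG effect of -1 or lower in OE. Of these, 259 were also lower in WT by 0.4 or more, 56 were higher in WT by 0.4 or more, and the remaining 219 form the set. Another 6 genes showed both changes but averaged under 1 FPKM and were left out. The limits cut through a continuous distribution. Just inside the limit in OE lay Potri.018G090300, with a PEG effect of -1.0002, and just outside it Potri.014G130300, with -0.9996. Just inside the limit in WT lay Potri.009G096600, with -0.3992, and just outside it Potri.019G018500, with -0.4015.

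**Figure D1:**
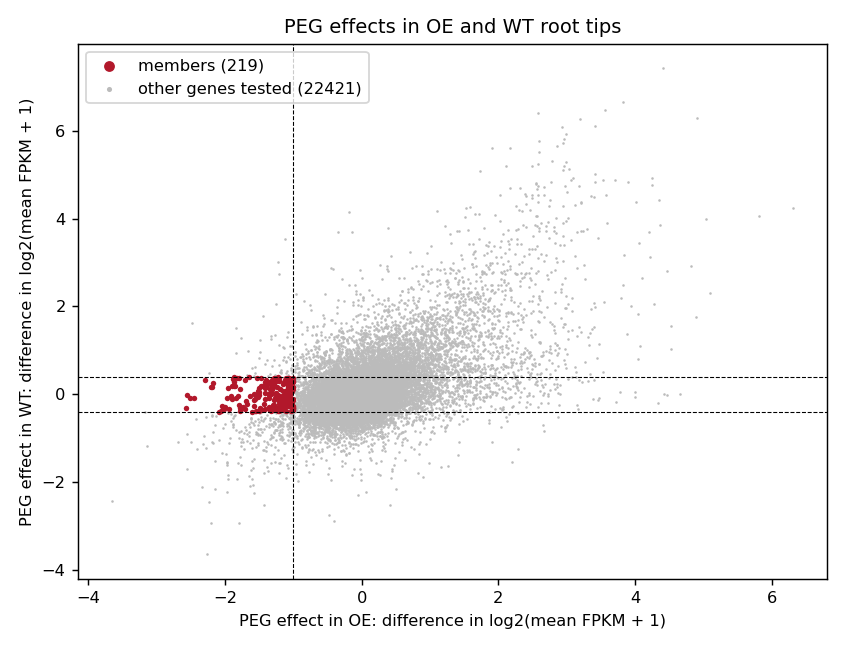
Each point is 1 of the 22640 genes tested, placed by its PEG effect in OE (horizontal) and in WT (vertical), both as differences in log2(mean FPKM + 1); dashed lines mark the limits of -1 in OE and 0.4 in either direction in WT. The 219 genes (red) form the left arm between the 2 horizontal lines and reach -2.56 in OE.

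As a body, the 219 genes were least abundant in OE with PEG and most abundant in OE without PEG. Their FPKM values summed to 3680.3, 3663.8 and 3599.9 in the OE libraries with PEG, and to 10096, 10049 and 10037 in the OE libraries without PEG. In WT they summed to 7832.4, 7844.1 and 7828.8 with PEG, and to 7811.6, 7802.8 and 7852.3 without it. As a share of a library's FPKM this was 0.544% to 0.553% in OE with PEG, 1.62% to 1.65% in OE without PEG, 1.28% to 1.29% in WT with PEG and 1.25% to 1.27% in WT without PEG. The WT sums were alike on both media, as the choice of genes requires, and lay between the OE sums. In such bulk samples, fewer cells of a type and less RNA per cell cannot be told apart.

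Outside OE with PEG, the 219 genes were more abundant at the median than all genes tested. Their median level was 7.70 FPKM in OE with PEG, 19.1 in OE without PEG, 15.5 in WT with PEG and 15.5 in WT without PEG. The same medians over all genes tested were 9.26, 9.03, 8.98 and 8.60 FPKM. The constant added to FPKM before the log is taken shrinks the changes of genes at low FPKM. The rule therefore favours abundant genes, and the higher medians follow in part from the choice of genes. How large that part is was not tested. In OE without PEG, the middle 50% of the 219 genes ran from 7.95 to 41.1 FPKM, and the extremes were 1.73 and 734. The most abundant was Potri.005G089900, a 371 bp gene that stood out only after its values were seen. It measured 227, 246 and 211 FPKM in OE with PEG and 746, 764 and 693 without PEG, against 246, 276 and 263 in WT with PEG and 314, 294 and 306 without PEG. Its OE libraries without PEG stood highest, WT without PEG came next, and OE with PEG and WT with PEG were lowest.

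The size of the change in OE was modest for most of the genes. The median PEG effect was -1.24 on the log2(mean FPKM + 1) scale, with quartiles of -1.49 and -1.08 and a lowest value of -2.56. It was -1.5 or lower for 52 genes and -2 or lower for 13. As a ratio of mean FPKM, OE without PEG was 2.01 to 12.7 times OE with PEG, with a median of 2.71. In WT the median PEG effect was -0.05, with 99 genes above 0 and 120 below, and 102 of the 219 stayed within 0.2 of 0. All 3 OE libraries with PEG lay below all 3 without it for 218 of the 219 genes, where 36.5% of all genes tested showed this. Both the count and its direction follow from how the genes were chosen.

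The exception, singled out after its values were seen, was Potri.013G030866. It measured 10.9, 6.00 and 7.32 FPKM in OE with PEG and 33.0, 9.25 and 14.0 in OE without PEG. The first OE library without PEG was high, and another overlapped the OE libraries with PEG. Without the first, the PEG effect in OE was -0.48, not -1.12, and the gene missed the rule. The gene also missed the rule without the second OE library with PEG. In WT it measured 16.9, 10.5 and 13.3 FPKM with PEG and 8.97, 14.3 and 17.7 without PEG.

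**Figure D2:**
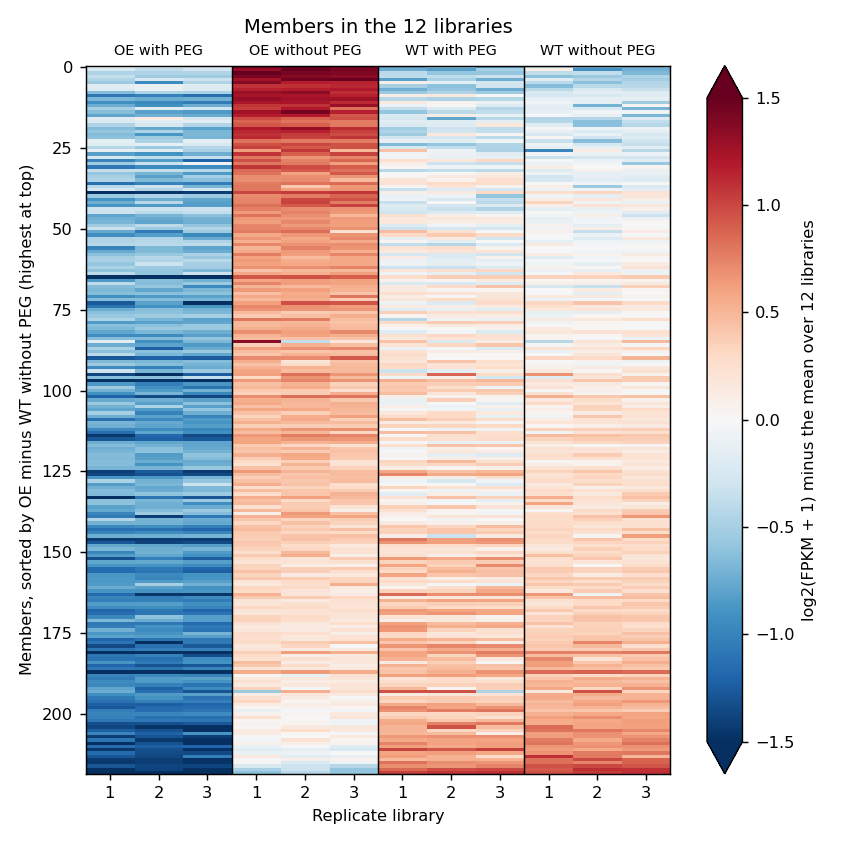
Rows are the 219 genes sorted by their OE minus WT difference without PEG, columns are the 12 libraries, and colour gives log2(FPKM + 1) minus the gene's mean over the libraries. The OE libraries with PEG are low almost throughout, while the OE libraries without PEG are high in the upper rows and near or below the WT libraries in the lowest rows.

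The 2 genes with the largest changes in OE on the log2(mean FPKM + 1) scale stood at different positions relative to WT. By the ratio of mean FPKM in OE without PEG to that with PEG, Potri.005G136700 was at 9.68, behind Potri.001G212101 at 12.7. Potri.006G001301, at 5.99, was also behind Potri.001G045000 at 9.27, Potri.006G272800 at 6.81 and Potri.014G069000 at 6.25, among others. Potri.005G136700 measured 1.54, 0.954 and 1.42 FPKM in OE with PEG and 12.4, 13.1 and 12.4 in OE without PEG. In WT it measured 11.2, 12.1 and 13.4 FPKM with PEG and 15.4, 15.7 and 15.3 without PEG. The OE libraries with PEG stood far below the rest. Without PEG, OE was slightly lower than WT (limma log2 difference -0.28, SE 0.09, adjusted p = 0.016), a call lost with a pseudocount of 0.1 (adjusted p = 0.066). Its mean of 1.30 ± 0.308 FPKM in OE with PEG rested on 71 reads per library, against 12.6 ± 0.401 FPKM and 672 reads in OE without PEG (SD, n = 3).

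Potri.006G001301 was more abundant. It measured 44.9, 49.8 and 50.7 FPKM in OE with PEG and 291, 295 and 284 in OE without PEG. In WT it measured 182, 196 and 197 FPKM with PEG and 193, 194 and 200 without PEG. Its OE libraries lay on both sides of WT, above it without PEG (limma log2 difference 0.57, SE 0.04, adjusted p = 7.8e-08) and below it with PEG, with no overlap.

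The comparison of OE with WT on ordinary medium was not used to choose the genes, although the same OE and WT libraries entered the choice. A gene that is high in OE without PEG, by chance or otherwise, is more easily chosen. The calls given next are therefore not independent of the choice. The comparison was tested in a limma fit over all 22640 genes on log2(FPKM + 1). Adjustment was by Benjamini-Hochberg, with calls at an adjusted p under 0.05. Of the 219 genes, 124 (56.6%) were higher in OE, where 31.7% of all genes tested were called higher. A further 42 (19.2%) were lower in OE, where 23.4% of all genes tested were called lower. With quantile normalization the upward share of calls was 69.3% for the 219 genes and 45.5% for all genes tested, against 74.7% and 57.5% on the FPKM as deposited. The median OE minus WT difference without PEG was 0.30 for the 219 genes and 0.04 for all genes tested.

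At 2-fold, that is, a difference of at least 1 on the log2(FPKM + 1) scale, 29 of the 219 were called higher in OE, where 3.90% of all genes tested were. The 2 highest were Potri.012G056800 and Potri.019G116932. Potri.012G056800 measured 107, 108 and 103 FPKM in OE without PEG, against 28.0, 24.3 and 23.5 in WT without PEG. The log2 difference in the limma fit was 2.03 (SE 0.06, adjusted p = 5e-12). With PEG it measured 36.9, 33.7 and 34.5 FPKM in OE, against 22.2, 24.9 and 21.4 in WT. It thus stood above WT on both media, by a smaller margin with PEG.

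Potri.019G116932, only 270 bp long, measured 5.38, 7.40 and 5.89 FPKM in OE without PEG, against 1.77, 0.373 and 0.558 in WT without PEG (limma log2 difference 1.99, SE 0.20, adjusted p = 1.1e-06). These values stood for means of 54 reads per library in OE and 7 in WT. With PEG it measured 1.19, 0.974 and 1.10 FPKM in OE, against 0.536, 0.459 and 0.819 in WT. Its lowest OE library without PEG lay above every library of the other groups. The size of these differences depended on the processing at such low levels. OE minus WT without PEG was 2.91 with a pseudocount of 0.1 and 3.0 by voom on the recovered reads. The PEG effect in WT, -0.25 over all libraries, was 0.13 without the first WT library without PEG. It was -0.43 without the second such library and -0.64 with quantile normalization, both outside the limit of the set.

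At the other end, 3 of the 219 genes were lower in OE by at least 2-fold without PEG, where 0.769% of all genes tested were. Potri.014G126500 measured 45.8, 52.7 and 47.1 FPKM in OE without PEG, against 139, 147 and 152 in WT without PEG (limma log2 difference -1.57, SE 0.05, adjusted p = 4.4e-12). With PEG it measured 23.7, 22.6 and 23.4 FPKM in OE, against 145, 150 and 152 in WT. The order of the groups was the same in every library, with OE with PEG lowest and OE without PEG next, while the WT groups overlapped.

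Potri.014G126300 measured 11.0, 12.3 and 10.1 FPKM in OE without PEG, against 30.7, 35.1 and 34.7 in WT without PEG (limma log2 difference -1.51, SE 0.08, adjusted p = 9.3e-10). With PEG it measured 4.76, 5.36 and 4.38 FPKM in OE, against 29.3, 31.9 and 32.6 in WT. Its identifier directly precedes that of Potri.014G126500 in the table's numbering, and the genes shared the same order of groups. If the genes are near-identical copies, reads could have been split between them, since the sources used here do not say how reads matching several genes were counted. The third gene, Potri.001G176200, measured 30.1, 28.5 and 26.1 FPKM in OE without PEG, against 69.7, 72.0 and 69.3 in WT without PEG (limma log2 difference -1.29, SE 0.05, adjusted p = 4.1e-11). The place of all 3 genes in the set rested on 1 OE library without PEG. Without the second of these libraries, the PEG effect in OE was -0.97 for Potri.014G126500 and -0.98 for Potri.014G126300. Without the first, it was -0.98 for Potri.001G176200.

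**Figure D3:**
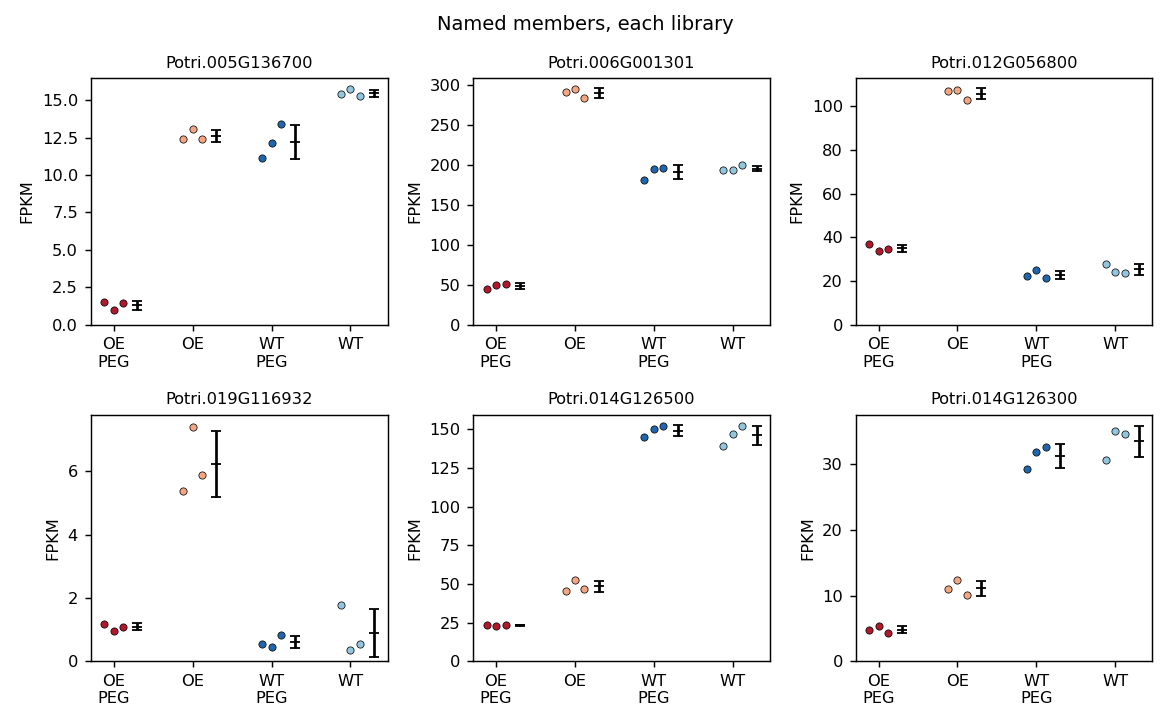
FPKM of the 6 genes named by rule in each of the 3 libraries per group (points), with the mean and SD beside them (bars, n = 3). The lowest group is OE with PEG in 4 of the panels, and WT with PEG in the panels of Potri.012G056800 and Potri.019G116932.

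Set against WT on each medium, the 219 genes spread along a continuum. Without PEG, 29 were above WT by 1 or more in log2(mean FPKM + 1), 63 by 0.4 to 1, 102 were within 0.4, 22 were below by 0.4 to 1 and 3 below by 1 or more. Under PEG, 109 of the 219 (49.8%) were below WT by 1 or more and 72 (32.9%) by 0.4 to 1, against 3.35% and 14.8% of all genes tested. Another 36 (16.4%) were within 0.4 of WT, where 61.8% of all genes tested were. These shares follow in part from the choice of genes, because a change in OE with none in WT moves the difference between them.

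Along that continuum the genes ended at different levels. The 29 genes that stood 1 or more above WT without PEG had a median difference from WT of -0.19 under PEG, and 20 of them were within 0.4 of WT. The 63 genes at 0.4 to 1 above WT had a median of -0.72 under PEG. For the 102 genes within 0.4 of WT without PEG the median under PEG was -1.15, with 69 below WT by 1 or more and 1 within 0.4. The 22 genes at 0.4 to 1 below WT without PEG had a median of -1.82, and all 22 were below WT by 1 or more under PEG. The groups of genes differ under PEG largely by construction, since the change in WT was held under 0.4.

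By group means, OE with PEG was the lowest of the 4 groups for 203 of the 219 genes (92.7%), where 32.4% of all genes tested showed this. OE without PEG was the highest group for 142 (64.8%), where 19.8% of all genes tested showed this. All 3 OE libraries with PEG lay below all 9 other libraries for 191 genes (87.2%), where 20.1% of all genes tested showed this. These counts follow largely from how the genes were chosen, and nothing is read from them. Under PEG, 2 of the 219 genes were above WT by 0.4 to 1 and 0 by 1 or more, against 14.2% and 5.95% of all genes tested, which again follows in part from the choice. The 2 were Potri.012G056800 and, chosen after its values were seen, Potri.004G054100, which measured 4.03, 4.43 and 4.02 FPKM in OE with PEG, against 2.50, 2.89 and 2.46 in WT with PEG.

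**Figure D4:**
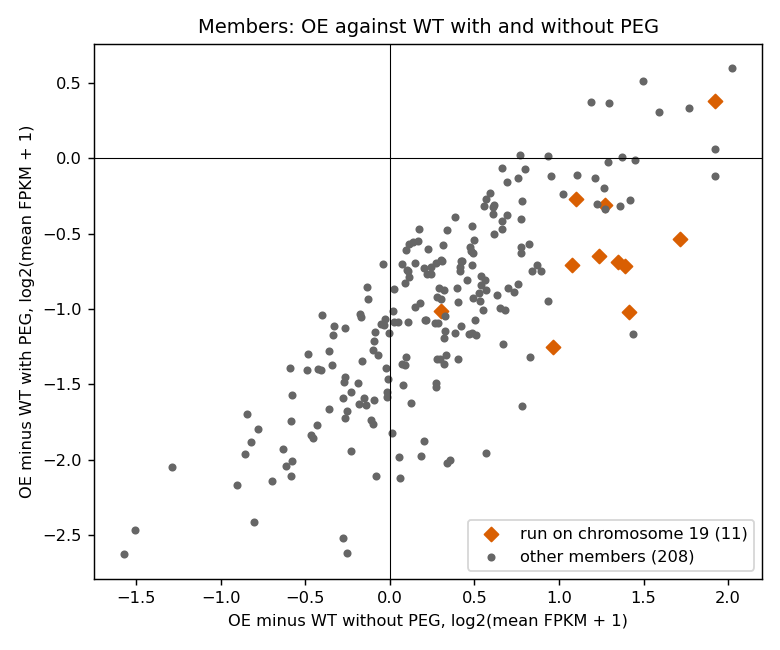
Each point is 1 of the 219 genes, placed by its OE minus WT difference in log2(mean FPKM + 1) without PEG (horizontal) and with PEG (vertical); diamonds are the 11 genes of a run on chromosome 19. The cloud lies mostly below 0 on the vertical axis, and all 11 diamonds lie to the right of 0 on the horizontal axis.

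The 219 genes were spread over all 19 chromosomes by the numbers in their identifiers, which give the chromosome in the naming scheme of the Populus trichocarpa genome. The sources used here do not give the genome build behind the table, and identifier order was taken only as a guide to which genes are neighbours. Chromosome 19 held 20 of the 219 genes (9.13%) and 2.69% of all genes tested, so that 3.29% of its 608 tested genes were in the set. Chromosome 4 held 22, or 1.75% of its 1258 tested genes. On the other chromosomes 0.549% to 1.22% of the tested genes were in the set. The limit of 5 places used next for neighbours was chosen after the identifiers were seen.

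In identifier order, 34 of the 219 genes (15.5%) lay within 5 places of another of them, in 12 runs. The same share was 12.9% of the 93 genes lower by 1 or more under PEG in both genotypes. It was 10.3% of the 78 genes lower in WT alone by the mirrored rule, and 21.7% of the 410 genes higher by 1 or more in OE with little change in WT. The longest run in the other 3 sets held 3, 2 and 6 genes, against 11 here. Both measures tend to rise with the number of genes in a set, so sets of such unlike size cannot be ranked by them. Of the 12 runs, 10 held 2 genes and 1 held 3.

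The long run lies on chromosome 19, and all that follows on it was chosen after its values were seen. It spans 13 consecutive identifiers, from Potri.019G116600 to Potri.019G117632, of which 11 were in the set. The place of some of the 11 was not firm. Potri.019G116932, Potri.019G117200, Potri.019G117201 and Potri.019G117566 each missed the rule when a certain single library was left out. Summed over the 11, FPKM was 110, 106 and 109 in OE with PEG and 433, 394 and 412 in OE without PEG. In WT the sum was 206, 201 and 194 with PEG and 192, 183 and 178 without PEG. In these sums, every OE library without PEG was above every WT library, and every OE library with PEG was below. This did not hold for every single gene of the run. Single PEG effects in OE ran from -2.17 to -1.0, with a median of -1.81, against -1.24 for the whole set.

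The most abundant gene of the run, Potri.019G116600, measured 62.6, 58.7 and 66.0 FPKM in OE with PEG and 235, 206 and 225 in OE without PEG. In WT it measured 105, 104 and 97.9 FPKM with PEG and 107, 103 and 104 without PEG. The gene with the largest PEG effect in the run, Potri.019G116866, measured 8.59, 8.28 and 7.77 FPKM in OE with PEG and 41.5, 41.5 and 38.7 in OE without PEG, against 19.2, 17.8 and 16.0 in WT with PEG and 16.5, 15.5 and 11.6 without PEG. In both genes OE without PEG was highest and OE with PEG lowest, as in the sum. The WT libraries with and without PEG overlapped in both genes, unlike those of the sum.

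In the comparison without PEG, limma called 31.7% of all genes tested and 56.6% of the whole set higher in OE. The run was picked after its values were seen, so its own count is only a description beside these shares. Of the 11 genes, 10 were called higher in OE by limma in the comparison without PEG, with adjusted p of 0.0017 or lower. The other, Potri.019G117632, averaged 8.18 ± 0.900 FPKM in OE, against 6.44 ± 1.15 FPKM for WT (SD, n = 3, limma log2 difference 0.31, SE 0.13, adjusted p = 0.059). The median OE minus WT difference of the 11 was 1.27 without PEG and -0.69 with PEG. Neighbours outside the set differed among themselves in the order of the groups. Potri.019G116500, just before the run, averaged 9.60 ± 0.790 FPKM in OE with PEG and 30.1 ± 1.64 in OE without PEG, against 16.8 ± 1.16 in WT with PEG and 10.6 ± 1.00 without PEG. It was left out because its PEG effect in WT was 0.62.

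Potri.019G117700, just after the run, and Potri.019G116800, within it, missed the limit in WT with PEG effects of 0.42 each. In OE their PEG effects were -1.57 and -0.87. Potri.019G117700 averaged 3.95 ± 0.683 FPKM in OE with PEG and 13.7 ± 0.635 in OE without PEG, against 10.5 ± 1.36 in WT with PEG and 7.60 ± 0.621 without PEG (SD, n = 3). Potri.019G116800 averaged 78.4 ± 4.74 FPKM in OE with PEG and 144 ± 6.52 in OE without PEG, against 59.7 ± 2.87 in WT with PEG and 44.3 ± 2.06 without PEG. Under PEG it thus stayed above WT, unlike the sum over the 11. Among the 11, Potri.019G116932 also averaged above WT under PEG, at 1.09 FPKM in OE against 0.604 in WT. The other gene within the run but outside the set, Potri.019G117100, averaged 0.0556 FPKM over the 12 libraries and was not tested. The next genes on either side had PEG effects in OE of -0.18 at Potri.019G116400 and 0.24 at Potri.019G117800. Outside the run, 9 of the other 596 genes tested on chromosome 19 (1.51%) were in the set.

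The run holds short genes, of 267 to 883 bp, and 4 of the 11 are under 300 bp long. Potri.019G116600, Potri.019G116932 and, outside the set, Potri.019G116800 are all 270 bp long. Repeated lengths at neighbouring identifiers can go with near-identical copies, in which case the 11 values are not separate measurements. Whether reads were shared among these genes was not tested.

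**Figure D5:**
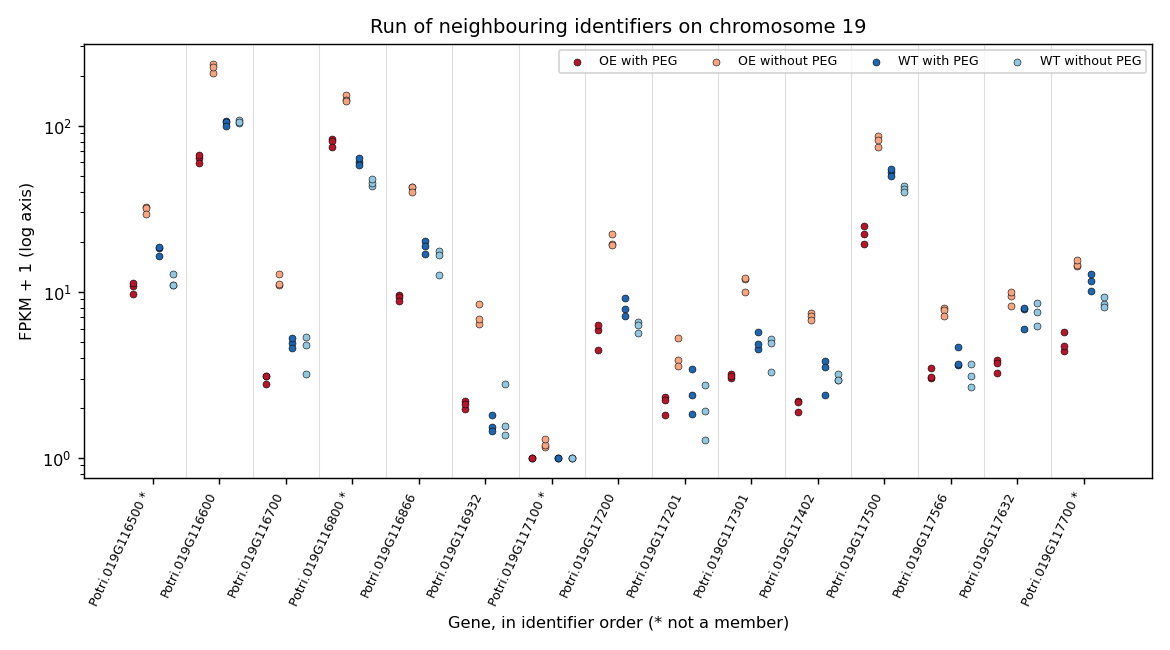
FPKM + 1 on a log axis for 15 consecutive identifiers on chromosome 19, with 3 libraries per group; an asterisk marks genes outside the set. In the 14 tested genes the OE libraries with PEG lie below the OE libraries without PEG. Limma called OE higher than WT without PEG in 13 of them, where 31.7% of all genes tested were called higher.

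Gene length, recovered from the steps of the FPKM values, was not used to choose the genes. The 219 genes had a median length of 1672 bp, with quartiles of 1020 and 2550 bp, against 1825 bp, with quartiles of 1219 and 2813 bp, over all genes tested. Genes under 300 bp made up 5.02% of the set (11 genes) and 1.91% of all genes tested. Median length was 1614 bp for the 93 genes lower under PEG in both genotypes, 1216 bp for the 78 lower in WT alone and 1362 bp for the 410 higher in OE alone.

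The PEG effect in OE went with length in opposite senses within the set and over all genes tested. Across the 219 genes, Spearman's rho between length and the PEG effect in OE was 0.253, so within the set the shorter genes tended to be the lower ones. Across all 22640 genes tested it was -0.34, so there the longer genes tended to be lower with PEG. Genes are not independent replicates, they share the same 12 libraries, and the range of the effect within the set is cut at -1. With the length trend removed from each library, 169 of the 219 genes still met the rule.

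The other sets of PEG-responsive genes differed in where OE stood before PEG. Without PEG, the median OE minus WT difference was 0.30 for the 219 genes, 0.21 for the 93 lower under PEG in both genotypes, -0.59 for the 78 lower in WT alone and 0.39 for the 410 higher in OE alone. All of these sets were chosen on PEG effects that use the same OE and WT libraries without PEG, so the values stand side by side only. Calls of higher in OE were made for 56.6% of the 219 genes, 50.5% of the 93, 7.69% of the 78 and 60.0% of the 410. Calls of lower in OE were made for 19.2%, 28.0%, 80.8% and 11.0% in the same order.

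Depth limits a part of the set. In OE with PEG the mean number of reads per library had a median of 370.0 over the 219 genes, ran from 1.70 to 25700.0 and was under 100 for 47 genes.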

How the data were processed

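The deposited table holds FPKM, which the authors made per gene and library. The submitters' processing notes list HTSeq 0.6.0, HISAT2 2.1.0 and Bowtie2 2.2.3 without saying what each did. The sources used here do not give the genome build, annotation or strand setting. The 219 genes, the alternatives and the rule for named genes were chosen with earlier results of these data known. No annotation was used, so planned counts of description words and promoter motifs were not made.

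Columns were assigned to groups by sample title. OE against WT without PEG was fitted with limma 3.58.1 in R 4.3.3 on log2(FPKM + 1), with a mean-variance trend, 4 group means over 12 libraries, 8 residual degrees of freedom and two-sided moderated statistics. Genes averaging at least 1 FPKM were tested (22640), with Benjamini-Hochberg adjustment over all of them. Group differences used by the rule are of log2(mean FPKM + 1).

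Whole reads, library totals and gene lengths were recovered from the FPKM values for all 22640 genes by searching the length at which all 12 values are whole reads. The recovery, the rule and the fit were tested on simulated data. Read numbers cover counting error only.

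The rule for named genes took the 2 genes with the largest change in OE (at least 5 FPKM in OE without PEG), the 2 highest and 2 lowest in OE minus WT without PEG, and the genes nearest each limit. Alternatives covered pseudocount, filter, scaling, length trend, replicate block, libraries fitted, voom on recovered reads, thresholds and each library left out.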

Additional observations from a re-analysis of the deposited data

How the results depend on the processing

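Of the alternatives tried, 3 moved the number of genes meeting the rule by over 1.5 times: a pseudocount of 0.1 gave 340, of which 197 were among the 219, a change of at least 1.5 in OE gave 52, and a WT limit of 0.2 gave 102. The other alternatives gave 169 (minimum mean FPKM of 5) to 272 (pseudocount of 0.5), and leaving out 1 library gave 210 to 222. With each library left out in turn, 143 of the 219 genes met the rule every time and 76 missed it at least once. Median-of-ratios scaling gave 197 and quantile normalization 269, each sharing 193 with the set. The median PEG effect of the 219 genes in OE was -1.42 with a pseudocount of 0.1 and -1.31 to -1.21 under the scalings.

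In the comparison of OE with WT without PEG, the 124 genes called higher became 97 to 128 over all alternatives. The 42 called lower became 34 to 50, and no gene of the set was called in the opposite direction. Both low ends came from the minimum mean FPKM of 5, with which only 169 of the 219 genes were tested. Where all 219 were tested, the ranges were 113 to 128 and 37 to 50. Leaving out 1 library gave 116 to 126 higher and 37 to 43 lower, and 11401 to 12537 calls over all genes. With a replicate block, 126 were higher and 41 lower. Same-numbered libraries share only a number: their deviations correlated at -0.071 to 0.1, and 0 of the 6 libraries without PEG correlated best with their own number. Of the 6 named genes, Potri.005G136700 lost its call with a pseudocount of 0.1 (limma log2 difference -0.29, adjusted p = 0.066, against -0.28 and 0.016). The cause was not tested. Across the alternatives, 323 other values of these 6 genes kept their call or stayed within 1 SD, and 11 PEG effects moved by more than 1 SD. Many of the 323 could not have come out otherwise. A PEG effect in 1 genotype does not change when a library of the other genotype is left out. Leaving out 1 of 3 libraries shifts the mean of a group by less than 1 SD of that group. The 323 are therefore no measure of how firm these values are.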
